A study of Mus musculus with 6 samples.

Results

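Nr4a1 (Nur77), Nr4a2 (Nurr1) and Nr4a3 (Nor1) make up the NR4A family of nuclear receptors, and these 3 genes were taken by symbol from the 31053 features of the deposited matrices. In the GRCm38 annotation Nr4a1 (ENSMUSG00000023034) lies at chr15:101254269-101274795 on the plus strand, Nr4a2 (ENSMUSG00000026826) at chr2:57106830-57124003 on the minus strand and Nr4a3 (ENSMUSG00000028341) at chr4:48045153-48086447 on the plus strand. NR4A receptors are transcription factors with the fold of a nuclear receptor but a ligand pocket filled by bulky side chains, so their activity is set mainly by how much of them a cell makes. Their genes are immediate early genes, transcribed within minutes of growth factors, cyclic AMP, calcium entry, antigen receptor signalling, inflammatory stimuli or mechanical stress, and much of the cyclic AMP response runs through CREB bound at cyclic AMP response elements. In macrophages the family is known for limiting inflammatory gene expression, and in T cells Nr4a1 is a standard reporter of antigen receptor signalling.

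The samples were corneas, without the limbus, of naive female mice whose strain background was 129S2–C57BL/6-mixed. Single cells were freed with DNase I and collagenase A, and dead cells were taken out. KO mice carried the miR-183CGT/GT genotype, a knockout of the cluster that encodes miR-183, miR-96 and miR-182, and WT mice were their littermates. Whole cornea was taken at 2 and 6 months of age from both genotypes, and CD45-positive cells were also enriched on magnetic beads from both genotypes at 6 months (CRIC in the labels). Each of these 6 groups is 1 droplet library of 3′ ends, so p-values measure only the spread between these libraries, which may be technical. The microRNAs themselves were not analysed here, so the KO labels were not checked on them.

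The 6 libraries held 11124 to 15083 cells for whole cornea and 3350 and 4823 cells for CRIC, with a median of 1156 to 5495 unique molecular identifiers (UMIs, 1 per captured RNA molecule) per cell. Cells were clustered without the 3 NR4A genes and named from markers: keratocyte-like cells (the stromal fibroblasts of the cornea, with collagens, Kera and Lum), epithelial-like cells (keratins, Epcam) and immune-like cells (Ptprc, Tyrobp). The 10 keratocyte markers summed to 69409 to 86487 CPM (a gene's UMIs scaled to a total of 1e6 UMIs for that class in that library) in keratocyte-like cells of the 6 libraries, and the 10 immune markers to 15183 to 37889 in immune-like cells, the lowest of these in the 6-month KO cornea. Pairs of libraries shared between 2 and 32 cell barcodes. Although its label says female, the 2-month KO library held 3077 UMIs of Y-linked genes, against 0 to 2 in the others, and 785 of its deeper keratocyte-like cells had Y-linked and no Xist UMIs.

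The promoters are shown because this family is known to be induced through cyclic AMP response elements, and all 3 windows carry the half-site of that element. Each line gives the 250 bases before the RefSeq start site (build GRCm38.p6), 5′ to 3′ on the gene's own strand, with the half-sites CGTCA and TGACG (each the reverse complement of the other) in capitals.
Nr4a1, chr15:101266596-101266845, plus strand: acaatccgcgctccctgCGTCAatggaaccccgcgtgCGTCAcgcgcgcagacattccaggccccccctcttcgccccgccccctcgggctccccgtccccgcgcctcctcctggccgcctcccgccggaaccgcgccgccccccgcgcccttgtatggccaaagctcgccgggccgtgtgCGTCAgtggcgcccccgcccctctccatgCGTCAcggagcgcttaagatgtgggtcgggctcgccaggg
Nr4a2, chr2:57124004-57124253, minus strand: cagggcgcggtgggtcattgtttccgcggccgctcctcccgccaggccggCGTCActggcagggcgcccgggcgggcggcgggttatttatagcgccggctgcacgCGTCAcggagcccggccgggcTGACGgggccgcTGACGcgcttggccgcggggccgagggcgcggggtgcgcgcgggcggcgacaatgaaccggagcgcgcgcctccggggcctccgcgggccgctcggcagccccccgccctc
Nr4a3, chr4:48045055-48045304, plus strand: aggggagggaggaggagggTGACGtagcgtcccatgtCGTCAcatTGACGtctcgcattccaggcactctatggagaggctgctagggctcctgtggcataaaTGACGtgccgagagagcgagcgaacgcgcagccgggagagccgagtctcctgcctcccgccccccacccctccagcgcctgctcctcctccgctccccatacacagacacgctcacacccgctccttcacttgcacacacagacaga
All 3 windows hold 4 half-sites. Of the 32851 promoters of this length in the table, 17.8% hold at least 1 half-site and 0.137% hold at least 4. In Nr4a1 the 4 begin 233, 213, 69 and 40 bases before the start, in Nr4a2 200, 144, 123 and 111 bases before it, and in Nr4a3 231, 213, 205 and 147 bases before it. The full palindrome TGACGTCA is not in any of the 3 windows and is in 1.55% of all. The RefSeq start of Nr4a1 lies inside the longer GENCODE gene, and the Nr4a3 window overlaps the GENCODE gene at its 5′ end. A match of letters is a description and not a measured binding site.

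The microRNAs that the KO mice lack are shown because their seeds (bases 2 to 8, in capitals) decide which transcripts they can pair with. All 3 derive from chromosome 6.
miR-182-5p: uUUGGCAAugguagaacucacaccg
miR-96-5p: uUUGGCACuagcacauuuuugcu
miR-183-5p: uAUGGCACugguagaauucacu
No 2 of the seeds are the same, so each was searched for its own match. The longest GENCODE 3′ UTRs of Nr4a1 (543 bases), Nr4a2 (1326 bases) and Nr4a3 (3095 bases) hold 0 matches to any of the 3 seeds. Among UTRs of like length, the share with a match ran from 3.44% to 4.37% for the length of Nr4a1, from 8.40% to 11.2% for Nr4a2 and from 16.9% to 21.8% for Nr4a3, so 0 is also the usual count.

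Immune-like and keratocyte-like cells carried most NR4A RNA per UMI and epithelial-like cells little, with Nr4a2 the exception in epithelium. Levels are given in CPM, in the order 2-month WT, 2-month KO, 6-month WT, 6-month KO, CRIC WT and CRIC KO. Since 1 UMI stands for 1 captured 3′ end, these levels are not divided by transcript length.

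Nr4a1 stood at 142, 79.5, 209.7, 145, 126 and 78.4 CPM in keratocyte-like cells. In epithelial-like cells it stood at 9.42, 7.08, 14.2, 7.49, 2.60 and 3.73 CPM, and in immune-like cells at 174, 217, 176, 141, 168 and 184 CPM. The epithelial-like range lay wholly below the other 2, while the keratocyte-like and immune-like ranges overlapped. Keratocyte-like cells exceeded epithelial-like cells by 4.03 ± 0.61 on the log2(CPM + 1) scale (SD, n = 6 libraries), higher in 6 of 6 (exact two-sided sign-flip test, p = 0.03125, the smallest that 6 libraries allow; adjusted over 9 such comparisons 0.0469). Immune-like cells exceeded epithelial-like cells by 4.55 ± 0.78 (higher in 6 of 6, exact test, adjusted p = 0.0469). Immune-like minus keratocyte-like cells came to 0.51 ± 0.68, higher in 4 of 6 libraries (exact test, adjusted p = 0.141), so the order of these 2 classes did not hold up against the spread between libraries.

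Nr4a2, the member needed for dopamine neurons in the brain, stood at 52.9, 21.1, 68.5, 45.7, 64.1 and 23.8 CPM in keratocyte-like cells. It reached 10.8, 13.1, 7.58, 5.36, 29.6 and 42.0 CPM in epithelial-like cells and 35.6, 38.4, 64.4, 109, 92.0 and 138 CPM in immune-like cells. All 3 ranges overlapped, and in the CRIC KO library the epithelial-like level was above the keratocyte-like one. Immune-like cells exceeded epithelial-like cells by 2.24 ± 1.06 on the log2(CPM + 1) scale (higher in 6 of 6, exact test, adjusted p = 0.0469). Keratocyte-like minus epithelial-like cells came to 1.5 ± 1.47 (5 of 6, exact test, adjusted p = 0.121) and immune-like minus keratocyte-like cells to 0.74 ± 1.07 (4 of 6, exact test, adjusted p = 0.188), neither past the threshold.

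Nr4a3 was the only member whose ranges in the 3 classes were apart. It stood at 21.4, 9.79, 26.4, 18.5, 17.9 and 5.89 CPM in keratocyte-like cells and at 134, 107, 73.9, 62.5, 108 and 105 CPM in immune-like cells. In epithelial-like cells it stood at 1.64, 0.432, 1.10, 1.10, 0 and 0.467 CPM, where the 0 of the CRIC WT library allows up to 0.976 CPM (3 counts, counting error only). Immune-like cells were highest and epithelial-like cells lowest in every library. Immune-like cells exceeded keratocyte-like cells by 2.59 ± 0.94 (log2 of CPM + 1), a 6.02-fold ratio of geometric means, keratocyte-like exceeded epithelial-like cells by 3.23 ± 0.69, and immune-like exceeded epithelial-like cells by 5.82 ± 0.70, each in 6 of 6 libraries (exact tests, adjusted p = 0.0469 each).

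**Figure D1:**
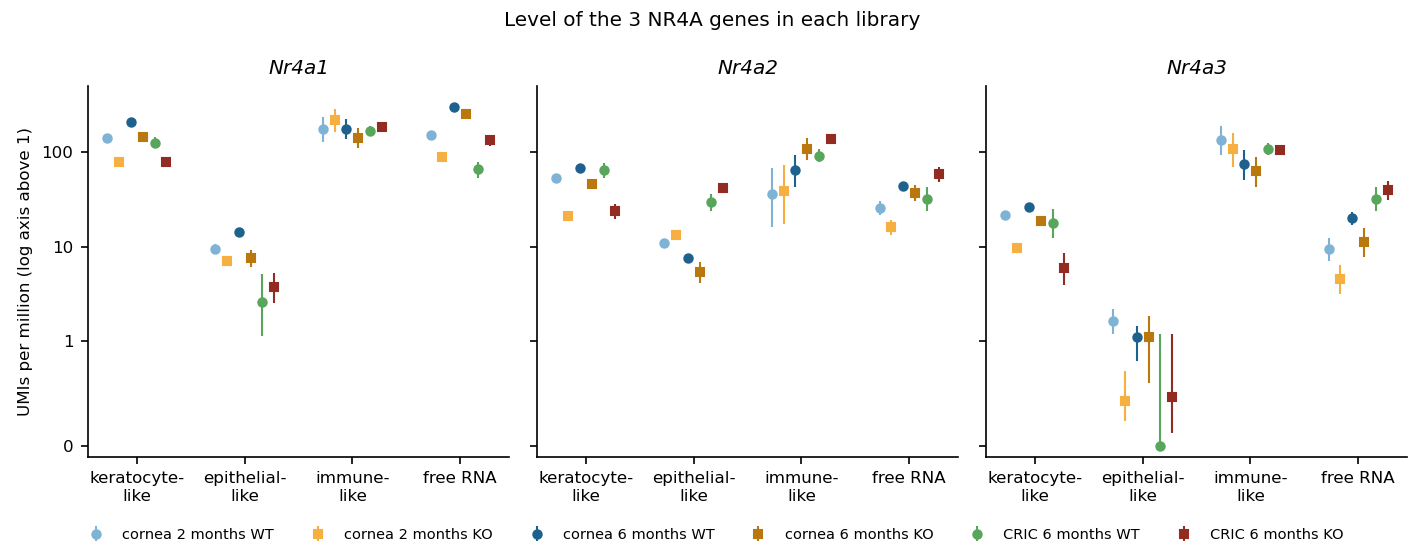
CPM of Nr4a1, Nr4a2 and Nr4a3 (1 panel each; vertical axis in CPM, log above 1) in keratocyte-like, epithelial-like and immune-like cells and in free RNA, with 1 point per library and exact 95% Poisson intervals that cover counting error only. Nr4a3 separates all 3 classes, Nr4a1 separates epithelial-like cells from the other 2, and epithelial-like Nr4a2 is highest in the 2 CRIC libraries (29.6 and 42.0 CPM).

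Shares of cells with a UMI followed the same picture once each cell was thinned to 500 UMIs. A UMI of any of the 3 was present in 5.93% to 13.2% of keratocyte-like cells over the 6 libraries (median 9.97%), 0.935% to 2.51% of epithelial-like cells (median 1.59%) and 15.4% to 19.3% of immune-like cells (median 17.3%). Without thinning, where epithelial-like cells have a median of 4190.5 to 9580 UMIs and immune-like cells 792 to 1685, the shares were 26.5% to 56.3%, 6.45% to 25.1% and 24.3% to 44.7%. By gene, the thinned median share in keratocyte-like cells was 6.88% for Nr4a1, 2.63% for Nr4a2 and 0.918% for Nr4a3. In immune-like cells it was 9.20%, 4.66% and 5.34%, and in epithelial-like cells 0.443%, 0.883% and 0.0747%. By these medians Nr4a2 was the most often seen member in epithelial-like cells and Nr4a1 in both other classes. The epithelial-like order did not hold in every library. In the 6-month WT cornea the thinned shares were 0.949% for Nr4a1 and 0.558% for Nr4a2. In the 6-month KO cornea they were 0.281% and 0.561%, though by CPM Nr4a1 was the higher there (7.49 against 5.36).

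Carry-over between cells was read from markers. The summed keratocyte markers in epithelial-like cells came to 0.0928% to 5.14% of their level in keratocyte-like cells. Nr4a1 in epithelial-like cells came to 2.06% to 8.91% of its keratocyte-like level. Nr4a3 came to 0% to 7.93%, below the markers' percentage of the same library in 3 of 6. Nr4a2 in epithelial-like cells was 11.1% to 177% of its keratocyte-like level, above the markers' percentage in each library. In immune-like cells the keratocyte markers came to 6.32% to 11.7% of their keratocyte-like level in whole cornea and to 1.11% and 0.536% in the CRIC WT and CRIC KO libraries. Free RNA (barcodes of at most 100 UMIs) held Nr4a1 at 65.5 to 298 CPM, Nr4a2 at 16.1 to 58.1 CPM and Nr4a3 at 4.59 to 39.4 CPM over the 6 libraries. In whole cornea the free RNA level of Nr4a1 was 1.05 to 1.73 of its keratocyte-like level, against 0.388 to 0.490 for the keratocyte markers. The markers thus set no upper limit on the carry-over of Nr4a1. In the 6-month WT and KO corneas free RNA held Nr4a1 at 298 and 250 CPM, above the immune-like 176 and 141 CPM. At 2 months it held 150 and 89.1 CPM, below the immune-like 174 and 217 CPM. How much of the epithelial-like level of Nr4a1, or of its immune-like level in whole cornea, is carry-over was not tested. The immune-like cells of the 2-month WT, 2-month KO and 6-month WT corneas lay mostly (133 of 215, 158 of 198 and 144 of 201 cells) in an unnamed cluster led by the surface-epithelium genes Psca and Lce3a. Their part in the immune-like values of those libraries was not tested. Macrophage-like cells of the CRIC libraries held Nr4a1 at 161 (WT, 1379 cells) and 182 CPM (KO, 1837 cells), Nr4a2 at 72 and 133 CPM and Nr4a3 at 97.7 and 94.4 CPM.

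Against the rest of the nuclear receptor superfamily, the NR4A genes led in immune-like cells. Of 49 receptor genes ranked there by mean CPM (not divided by length), Nr4a1 was the first at 177 ± 24.8 CPM (SD, n = 6 libraries), Nr4a3 the second at 98.3 ± 26.0 and Nr4a2 the third at 79.5 ± 40.6. The next was Nr3c1, the glucocorticoid receptor, at 67.3 CPM, within 1 SD of Nr4a2. In keratocyte-like cells the circadian receptor Rora led at 351 CPM, and the members ranked 5 (Nr4a1, 130.1 ± 48.9 CPM), 8 (Nr4a2, 46.0 CPM, from 21.1 to 68.5) and 15 (Nr4a3, 16.6 ± 7.55). In epithelial-like cells the retinoic acid receptor Rarg led at 68.2 CPM, and Nr4a2 ranked 12 (18.1 ± 14.5), Nr4a1 19 (7.41 ± 4.16) and Nr4a3 26 (0.791 ± 0.596).

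Keratocyte-like cells gave most NR4A UMIs recovered from whole cornea. In the 2-month WT, 2-month KO, 6-month WT and 6-month KO corneas they were also 71.0%, 61.0%, 73.8% and 77.2% of the cells kept. Of all member UMIs in the 3 classes, they gave 90.6%, 81.0%, 94.1% and 90.6% in the 2-month WT, 2-month KO, 6-month WT and 6-month KO corneas. In the CRIC WT and CRIC KO libraries the immune-like cells gave 54.3% and 69.2%, though keratocyte-like cells still gave 36.6% and 17.4%.

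Within classes the members varied by cluster. Since libraries differ in level and in their clusters, keratocyte-like clusters were compared with the whole class inside each library. The cluster led by Cldn10 and Tnnc1 lay below the class level in 6 of 6 libraries for all 3 genes, and the cluster led by Slc26a7 and Kdr lay above it in 6 of 6 for all 3. The largest cluster, led by Gm26917 and Lars2 (8648 cells), lay above the class level in 6, 5 and 6 of 6 libraries for Nr4a1, Nr4a2 and Nr4a3. It was the highest cluster in 2, 1 and 3 of 6. The cluster led by Crabp1, a retinoic acid binding protein, lay above the class level in 6 of 6 libraries for Nr4a1. For Nr4a2 and for Nr4a3 the Crabp1 cluster did so in 5 of 6, and it was the highest in 1, 3 and 1 of 6. It has the highest level when libraries are pooled (242, 110.1 and 39.7 CPM for Nr4a1, Nr4a2 and Nr4a3), but 1931 of its 3323 cells are from the 6-month WT cornea, where the class level is highest. These clusters were singled out after their values were seen. Among epithelial-like clusters, Nr4a2 was highest in the one led by the desmosome gene Dsp and the hemidesmosome collagen Col17a1 (54.0 CPM) and next in the one led by Rbp2 and Muc15 (35.3 CPM), and was 2.02 CPM in the cluster led by the cornified envelope gene Lce3a. In those first 2 clusters Nr4a2 exceeded Nr4a1 (28.0 and 9.58 CPM). Of the 21 clusters, Nr4a1 and Nr4a2 were highest in Schwann-like cells, glia of the corneal nerves, at 518 and 145 CPM, but these were 76 cells with 43 and 12 UMIs. Within the CRIC KO immune-like cells, neutrophil-like cells (167 cells) held 321, 181 and 154 CPM. T or innate lymphoid-like cells (193 cells), led by Cd3g and Il17a, held 173, 104 and 217 CPM (55, 33 and 69 UMIs).

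**Figure D2:**
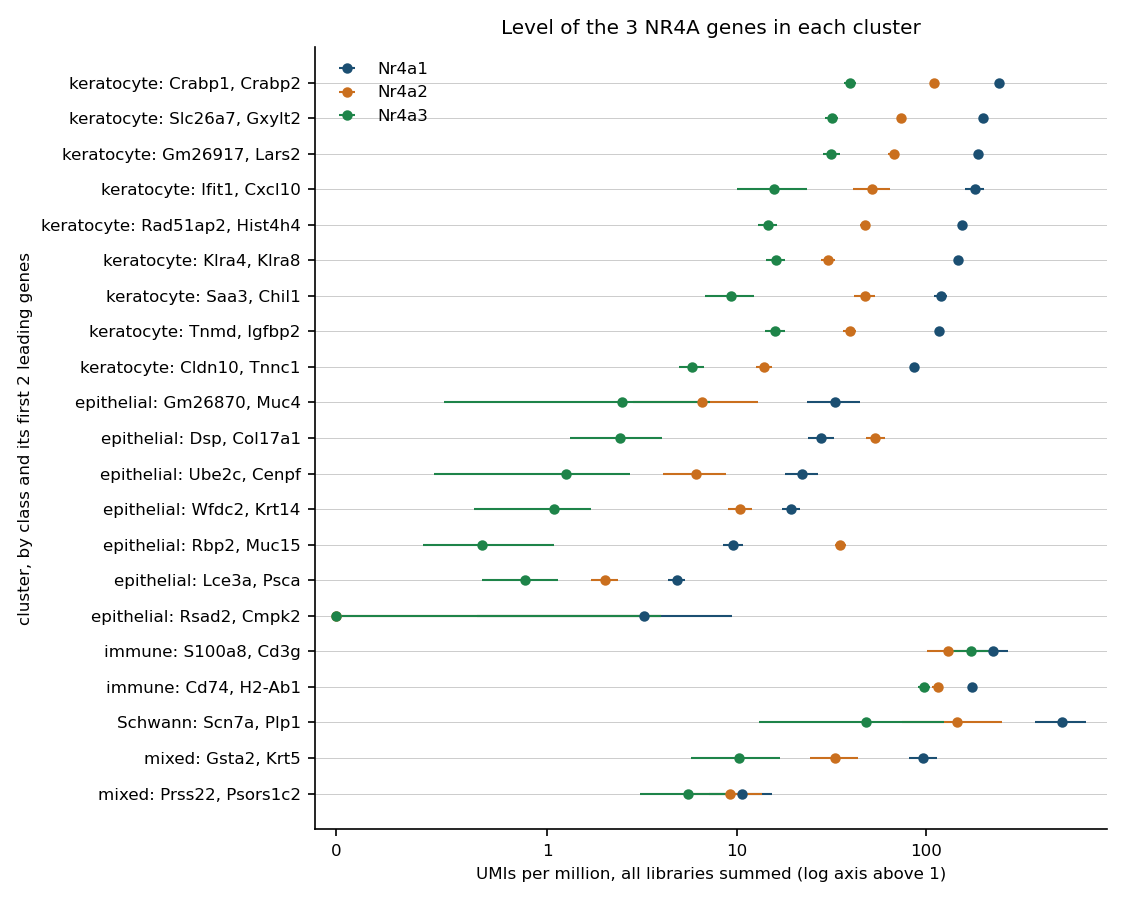
CPM of the 3 genes (horizontal axis, CPM, log above 1) in each cluster (vertical axis, by class and leading genes), pooled over the 6 libraries, with exact 95% Poisson intervals for counting error. Pooled levels also follow which libraries a cluster's cells come from (1931 of 3323 cells of the Crabp1 cluster are 6-month WT), and Nr4a2 exceeds Nr4a1 in the Dsp and Rbp2 clusters.

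The first comparison was of KO with WT. In keratocyte-like cells all 3 genes were lower in KO than in WT in each of the 3 pairs. Nr4a1 in KO was 0.559 (95% exact interval 0.532 to 0.588), 0.691 (0.660 to 0.723) and 0.622 (0.527 to 0.734) of WT by CPM at 2 months, at 6 months and in CRIC. Nr4a2 was 0.399 (0.364 to 0.437), 0.667 (0.615 to 0.723) and 0.371 (0.284 to 0.483) of WT, and Nr4a3 0.457 (0.398 to 0.524), 0.702 (0.617 to 0.798) and 0.329 (0.192 to 0.560). These intervals cover counting error only. Over the 6 libraries the WT and KO ranges did not overlap for Nr4a2. They overlapped for Nr4a1 and Nr4a3, where the 6-month KO level was above that of at least 1 WT library.

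Over the 4 whole-cornea libraries, with age as a second term and 1 residual degree of freedom, edgeR's quasi-likelihood test gave Nr4a2 at -1.03 ± 0.25 (log2 KO over WT ± SE, adjusted p = 0.0123) and Nr4a3 at -0.90 ± 0.23 (adjusted p = 0.0322). Nr4a1 came to -0.77 ± 0.28 (edgeR, adjusted p = 0.828) and was not called. So 2 of the 3 members were called lower, against 0.099% of the 14148 genes tested (0.325% in either direction). DESeq2 called neither (adjusted p = 0.662 and 1) and 0 genes in all, with 129 at an unadjusted p under 0.05 against 377 for edgeR. Neither gene was called by edgeR with all 6 libraries and the pair as a block (Nr4a2 -1.11, adjusted p = 0.805; Nr4a3 -1.02, adjusted p = 1), nor with any one library left out (Nr4a2 -1.49 to -0.60, Nr4a3 -1.26 to -0.56). Nr4a3 was also not called without the cluster led by the acute phase gene Saa3 (-0.76, edgeR adjusted p = 0.305), which held 26.8% of the keratocyte-like cells of the 6-month KO cornea, nor without the cluster led by Slc26a7 and Kdr (-0.91, edgeR adjusted p = 0.0779).

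Inside clusters the ratios were nearer to 1 at 6 months. Of keratocyte-like clusters with enough cells, Nr4a1 was lower in KO in 8 of 8 at 2 months, 8 of 8 at 6 months and 6 of 7 in CRIC. Nr4a2 was lower in 7 of 8, 6 of 8 and 5 of 7, and Nr4a3 in 8 of 8, 5 of 8 and 6 of 7. At 6 months the median ratio over clusters was 0.780 for Nr4a1, 0.784 for Nr4a2 and 0.952 for Nr4a3, against 0.691, 0.667 and 0.702 for the whole class. The medians were 0.533, 0.477 and 0.624 at 2 months and 0.564, 0.353 and 0.325 in CRIC. The Crabp1 cluster made up 17.3% of keratocyte-like cells in the 6-month WT cornea and 1.40% in the KO, and its part in the whole-class ratio was not tested. The Gm26917 cluster made up 33.5% and 18.5% in WT and KO at 2 months, 10.6% and 26.0% at 6 months, and 20.8% and 5.49% in CRIC. Its part was not tested either. In the Crabp1 cluster, singled out after its values were seen, the Nr4a2 level of WT was 113 CPM (2 months), 132 CPM (6 months) and 89.0 CPM (CRIC). The KO level of the same cluster was 37.6 CPM, 28.0 CPM (120 cells) and 26.9 CPM. Nr4a2 was higher in KO in 1 of 8 clusters at 2 months, 2 of 8 at 6 months and 2 of 7 in CRIC. In the 2-month KO library, keratocyte-like cells of at least 3000 UMIs with Y-linked but no Xist UMIs (785 cells) held Nr4a1 at 80.1 and Nr4a2 at 18.6 CPM. Those with Xist and no Y-linked UMIs (3550 cells) held 71.5 and 16.6 CPM, and the 2-month WT cells with Xist (4821 cells) 119 and 43.7 CPM. With 2 Y-linked UMIs the WT library has too few cells of the first kind to compare. The part of sex in the 2-month ratios was not tested.

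**Figure D3:**
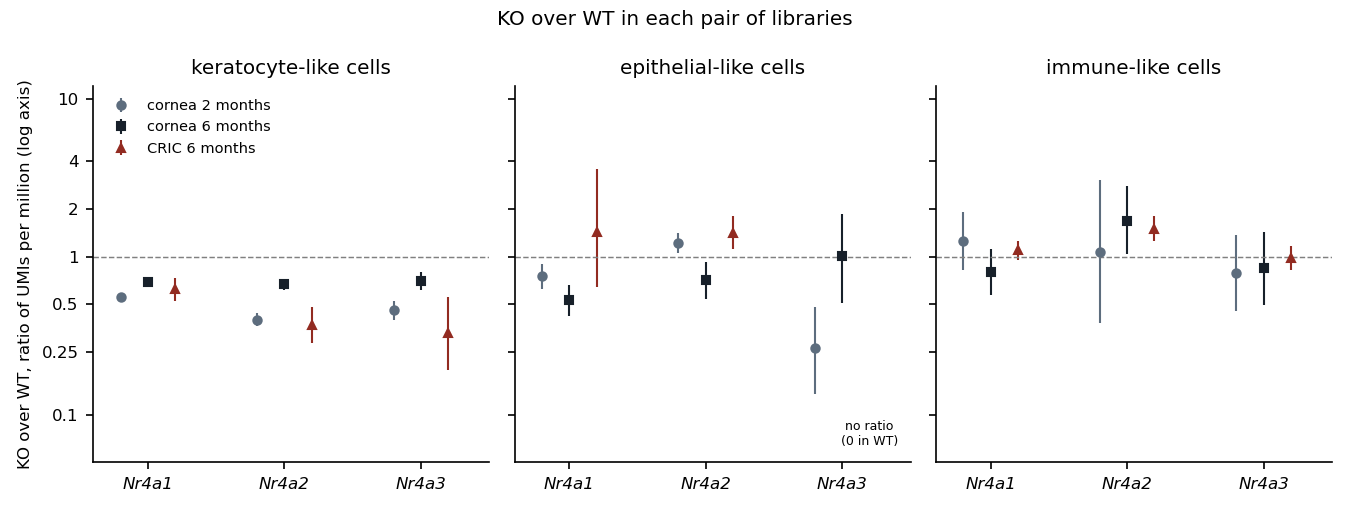
KO over WT by CPM (vertical axis, ratio on a log axis) for each member and pair in keratocyte-like, epithelial-like and immune-like cells, with exact 95% intervals for counting error. All 9 keratocyte-like ratios lie below 1, from 0.329 to 0.702, and the immune-like and epithelial-like ratios lie on both sides.

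In epithelial-like and immune-like cells no member was called for genotype. The epithelial-like estimates were -0.63 ± 0.23 for Nr4a1, -0.07 ± 0.23 for Nr4a2 and -0.96 ± 0.61 for Nr4a3 (edgeR, adjusted p = 1 each; 0.00767% of genes called, and 0.0235% with 6 libraries and the pair as block, 0.00783% lower). CPM ratios there carry a shift of all genes, a median log2 ratio of 0.30 at 2 months, -0.24 at 6 months and 0.097 in CRIC. The 2-month Nr4a2 ratio of 1.21 (log2 0.28) was at the shift of its pair. At 6 months the Nr4a2 ratio was 0.707 (log2 -0.50), further down than the shift. In CRIC it was 1.42 (log2 0.50), further up than the shift. Immune-like estimates over 6 libraries with the pair as a block were -0.06 ± 0.25, 0.46 ± 0.28 and -0.27 ± 0.26 (edgeR, adjusted p = 0.998 each; 0.475% called, 0.437% higher and 0.038% lower). Immune-like Nr4a2 was 1.08 (0.379 to 3.06), 1.69 (1.05 to 2.79) and 1.5 (1.25 to 1.80) of WT, with only 9 UMIs in either 2-month library. The class lies in different clusters by genotype. In CRIC the cluster led by Arg1 held 10 WT and 524 KO cells, neutrophil-like cells 8 and 167, and T or innate lymphoid-like cells 36 and 193. Of 8 CRIC immune clusters, KO was higher for Nr4a2 in 5 and lower in 3, and in the cluster led by Ccl17 and Cd209a it was 255 CPM in WT and 148 CPM in KO (ratio 0.581, 0.415 to 0.823). In the cluster led by Dsp and Krt12 it was 26.5 and 138 CPM (ratio 5.19, 1.58 to 27.0).

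No gene of the lists set beside the family was called for genotype. In keratocyte-like cells 0 of 26 other immediate early genes and 0 of 12 heat shock genes were called by edgeR. The same held for 0 of 15 partners and regulators of NR4A and 0 of 29 other nuclear receptors. Of all 14148 genes 0.325% were called, so 0 is the usual count for lists of this size and does not set the family apart. The list medians were -0.03, -0.15, 0.10 and 0.05 on the log2 scale, against -0.00 for all genes.

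Age, from 2 to 6 months, was compared in the same whole-cornea libraries with genotype as a term. Keratocyte-like estimates were 0.58 ± 0.28 for Nr4a1, 0.61 ± 0.25 for Nr4a2 and 0.47 ± 0.23 for Nr4a3 (log2, edgeR adjusted p = 0.644, 0.359 and 0.658; 1.57% of genes called, 0.82% higher and 0.749% lower). With a library left out they ran from 0.19 to 1.04 for Nr4a1, from 0.0013 to 1.32 for Nr4a2 and from -0.036 to 1.08 for Nr4a3. Without the 6-month KO cornea Nr4a1 came to 0.87, in a fit with 1 library at 6 months. Nr4a2 was called without the Gm26917 cluster (0.67, edgeR adjusted p = 0.0361). In that setting 431 of 13832 genes were called, against 222 of 14148 with the cluster kept. Of 8 keratocyte-like clusters, Nr4a1 was higher at 6 months in 8 in WT and 8 in KO, Nr4a2 in 6 and 7, and Nr4a3 in 4 and 8. Of the 26 other immediate early genes 4 rose with age, Atf3 (2.47), Myc (1.82), Egr3 (1.57) and Jun (1.46), and 0 fell. In epithelial-like cells Nr4a1 came to 0.83 ± 0.23 (edgeR, adjusted p = 0.0922; 1.47% called, 0.82% higher and 0.652% lower) and was not called. It passed in edgeR with no filter on low counts (adjusted p = 0.0485), with cells of at least 1000 UMIs (0.0192) and with another clustering seed (0.0306). Those settings called 577 of 19151, 386 of 12843 and 452 of 12963 genes, against 192 of 13043 in the main fit. With a library left out the estimate ran from 0.49 to 1.23, in fits with 1 library at 2 or at 6 months. By CPM its log2 ratio was 0.588 in WT and 0.08 in KO. CPM of all genes shifted there by a median of -0.13 and -0.75, and the edgeR values are relative to such a shift. Nr4a2 came to -0.40 ± 0.23 and Nr4a3 to 0.63 ± 0.60 (edgeR, adjusted p = 0.482 and 0.709).

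In epithelial-like cells at 6 months, Nr4a2 rose and Nr4a1 fell in the CD45-enriched preparation against whole cornea. These CRIC cells (580 in WT, 875 in KO) remained after an enrichment for immune cells, so how they were selected and how long they were handled cannot be told apart. Nr4a2 stood at 7.58 and 5.36 CPM in the whole corneas of WT and KO (331 and 68 UMIs) and at 29.6 and 42.0 CPM in CRIC (91 and 360 UMIs). Nr4a1 stood at 14.2 and 7.49 CPM in whole cornea and at 2.60 and 3.73 CPM in CRIC, the CRIC WT value resting on 8 UMIs. Neither gene's ranges overlapped between preparations. The keratocyte markers in the same epithelial-like cells stood at 4340 and 1166 CPM in whole cornea and at 64.4 and 236 CPM in CRIC, and their part in the lower Nr4a1 was not tested. CPM of all genes in these cells shifted by a median log2 ratio of 0.40 (WT) and 0.84 (KO), and the edgeR values are relative to such a shift. With genotype as a term, edgeR gave 1.83 ± 0.24 for Nr4a2 (adjusted p = 0.00169) and -2.23 ± 0.34 for Nr4a1 (adjusted p = 0.00278), and -2.57 ± 0.93 for Nr4a3 (adjusted p = 0.0814). In this comparison 21.2% of 11342 genes were called (8.23% higher, 13% lower), so a call here is common. Both calls were kept with each library left out.

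Cell makeup moved with preparation. The Rbp2 and Muc15 cluster made up 8.99% and 16.6% of epithelial-like cells in the 6-month WT and KO corneas and 25.7% and 40.2% in CRIC, and the Dsp cluster 17.4% and 14.6% against 32.6% and 26.5%. Inside the Dsp cluster Nr4a2 was 43.6 and 21.6 CPM in whole cornea and 76.2 and 100.8 CPM in CRIC, and inside the Rbp2 cluster 34.6 and 19.3 against 51.6 and 57.4 CPM. Over the 4 clusters compared, Nr4a2 was higher in CRIC in 2 (WT) and 3 (KO), with median ratios of 1.49 and 2.05, and Nr4a1 was lower in 4 of 4 in both genotypes, with medians of 0.109 and 0.438. Free RNA of the CRIC WT library held Nr4a1 at 65.5 and Nr4a2 at 32.1 CPM, while its epithelial-like cells held 2.60 and 29.6 CPM. The part of makeup in the whole-class difference was not tested further.

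**Figure D4:**
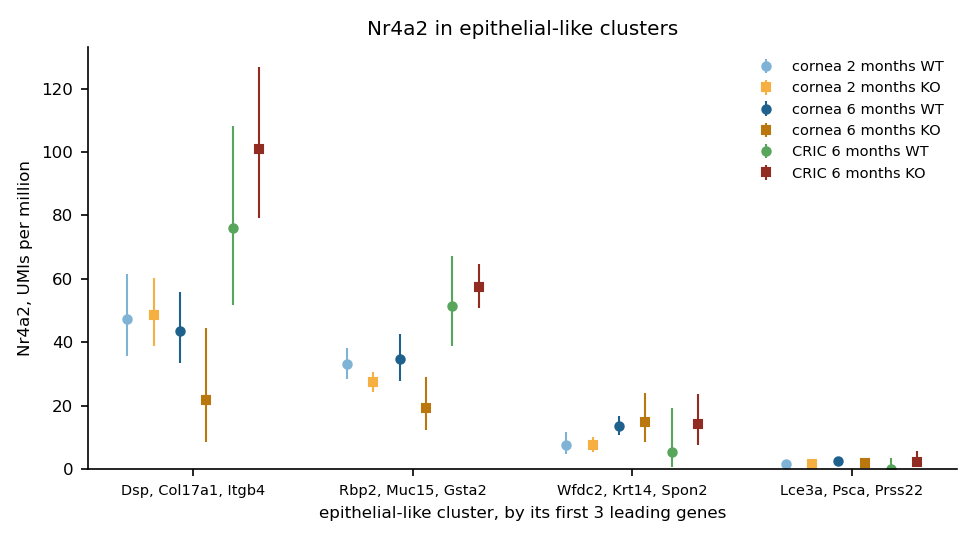
Nr4a2 CPM (vertical axis, CPM) in epithelial-like clusters by library, with exact 95% Poisson intervals for counting error. In the Dsp cluster the CRIC libraries stand at 76.2 and 100.8 CPM, above the 4 whole corneas at 21.6 to 48.6 CPM.

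Of the other immediate early genes of epithelial-like cells, 9 of 26 fell in this comparison, against 13% of all genes and beside the lower keratocyte markers, among them Ier3 (-1.98), Zfp36 (-1.77), Cyr61 (-1.71) and Dusp1 (-1.62), and 1 rose, Jund (1.05), with a list median of -0.63 against 0.01 for all genes. Of 14 partners and regulators 2 fell, the CREB coactivator Crtc2 (-1.45) and Srf (-1.04), and 0 rose, a share lower that is close to the 13% of all genes. In keratocyte-like cells preparation gave -0.72 ± 0.43, -0.42 ± 0.40 and -1.01 ± 0.42 for Nr4a1, Nr4a2 and Nr4a3 (edgeR, adjusted p = 1, 1 and 0.483; 1.41% called, 0.936% higher and 0.476% lower). Without the CRIC WT library Nr4a3 came to -1.83 there, in a fit with 1 CRIC library. In immune-like cells it gave 0.20 ± 0.26, 0.46 ± 0.28 and 0.69 ± 0.29 (edgeR, adjusted p = 0.741, 0.366 and 0.140; 9.87% called, 4.67% higher and 5.2% lower), so with all 4 libraries no member was called in either class.

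Keratocyte-like cells with a UMI of 1 NR4A gene held another more often than their depth gave. Odds ratios were taken within 10 bins of depth, since deeper cells show more of every gene. In keratocyte-like cells they were 2.53, 1.84, 3.57, 1.92, 2.63 and 2.93 for Nr4a1 with Nr4a2 in the 6 libraries. For Nr4a1 with Nr4a3 they were 2.41, 2.16, 3.59, 1.62, 1.53 and 1.61, and for Nr4a2 with Nr4a3 4.13, 2.22, 4.48, 2.06, 5.28 and 1.99. All 18 values were above 1, though the CRIC values with Nr4a3 rest on few cells with both (4 to 12 with another clustering seed). At 1000 UMIs per cell, with that seed, the CRIC KO values were 1.15, 0 and 0. They rest on 2, 0 and 0 cells with both, where 1.76, 0.211 and 0.0651 were expected, too few to read. In the other libraries the values at 1000 UMIs ran from 1.56 to 5.58. In the 6-month WT cornea, 1559 keratocyte-like cells held both Nr4a1 and Nr4a2 where depth alone gave 1092, and 508 held both Nr4a2 and Nr4a3 where depth gave 217. With the bins set inside each cluster the ranges over libraries were 1.73 to 2.93, 1.35 to 2.92 and 1.28 to 4.68. By median, genes of other lists stood lower in keratocyte-like cells. Median odds ratios with Nr4a1, Nr4a2 and Nr4a3 were 1.13, 1.11 and 1.04 for immediate early genes and 1.14, 1.18 and 1.28 for heat shock genes. The highest single genes reached 1.55, 1.83 and 1.77 in the first list and 1.61, 1.34 and 1.53 in the second. Each listed gene is given as its median over libraries and was kept only where enough cells with both were expected. The NR4A values are of single libraries without such a filter, so the 2 spans are not alike in kind. Per cell at 1000 UMIs, the nuclear RNAs Malat1 and Neat1 had a mean Pearson r over libraries of 0.0807 and 0.0656 with Nr4a1 and of 0.0832 and 0.0731 with Nr4a2, against 0.0667 for Nr4a1 with Nr4a2. The mitochondrial mt-Co2 and mt-Co3 had 0.0593 and 0.0560 with Nr4a2, and Nr4a1 with Nr4a3 ran from -0.014 to 0.0967. These correlations are weak, and the part of nuclear or mitochondrial RNA content in the odds ratios was not tested. All 3 members were seen in 98, 18, 455, 14, 4 and 3 keratocyte-like cells, which is 0.163% to 4.09% of them. These are unthinned counts, and depth differs between libraries, so the shares give no order. In immune-like cells of CRIC WT the 3 odds ratios were 1.83, 2.24 and 3.14, and in CRIC KO 1.31, 1.66 and 1.44. At 1000 UMIs per cell, with another clustering seed, they were 1.14, 0.937 and 3.13 (WT) and 1.12, 1.18 and 1.04 (KO). In whole cornea they were 2.27, 1.80 and 0 (2-month WT) and 1.91, 1.04 and 2.07 (2-month KO). At 6 months, with that seed, they were 0.896, 0.717 and 3.53 (WT) and 1.29, 1.73 and 3.66 (KO). Each whole-cornea value rests on at most 8 immune-like cells with both genes. Epithelial-like double positives were few, with 12 and 14 cells for Nr4a2 and Nr4a3 in the WT corneas of 2 and 6 months. Nr4a1 with Nr4a2 had odds ratios of 3.26 and 2.91 in those WT corneas and 0.969 in the 2-month KO cornea.

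**Figure D5:**
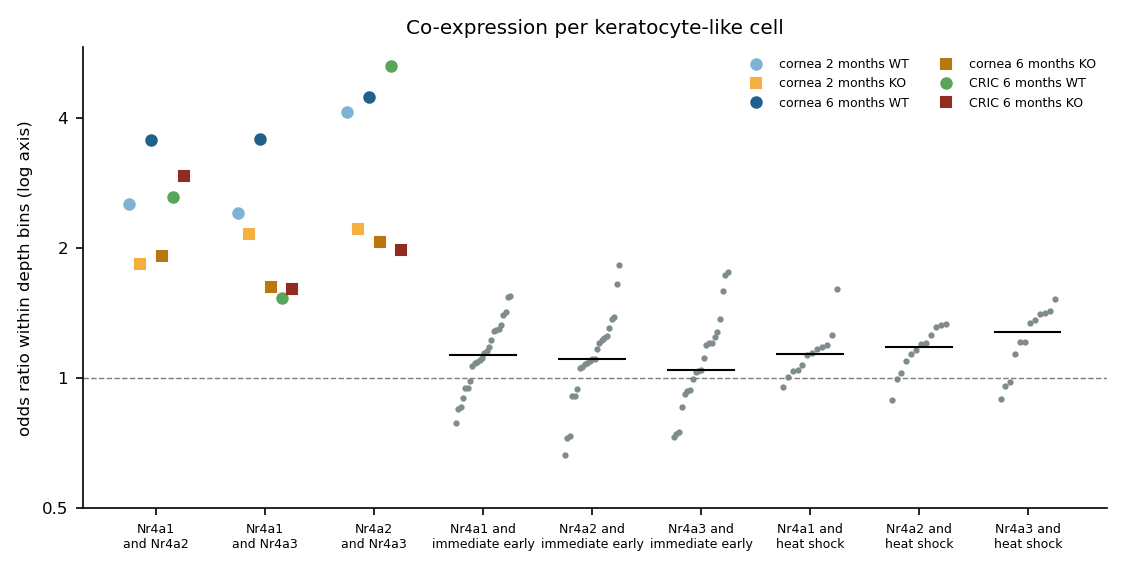
Odds ratios of finding a pair of NR4A genes in the same keratocyte-like cell within depth bins (vertical axis, log), 1 point per library, with the per-gene medians for other immediate early and heat shock genes in grey and each list's median as a bar. In single libraries the NR4A pairs run from 1.53 to 5.28. The list medians run from 1.04 to 1.28, and single listed genes reach 1.83 as medians over libraries.

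Over the 18 sums of class and library, the genes whose log2 level was most like each member among 9993 genes were Sdc3, Maf and B2m for Nr4a1 (Pearson r from 0.980), Tpm4, Hnrnpa1 and Spty2d1 for Nr4a2 (from 0.926), and Rab3il1, Ppp1r18 and Adam19 for Nr4a3 (from 0.984). Between members r was 0.678 for Nr4a1 with Nr4a2, 0.929 for Nr4a1 with Nr4a3 and 0.732 for Nr4a2 with Nr4a3. These 18 sums share libraries and are dominated by the 3 classes, so the values are a description.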

How the data were processed

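Single-cell 3′ RNA libraries of 6 groups, 1 library each, were analysed. The deposited matrices hold raw UMI counts per gene and barcode, unfiltered (559798 to 2214882 barcodes a library), aligned to mm10. Per the file headers they were written by Cell Ranger 6.0.1, while the submitters' processing notes name Cell Ranger 2.1.1. Cells were barcodes that differed from free RNA (adjusted p under 0.01 against barcodes of at most 100 UMIs) with at least 500 UMIs, at least 250 genes and at most 20% mitochondrial UMIs. Scrublet (scanpy 1.11.5) marked 28 and 52 cells of the CRIC libraries, which were removed, and 0 in the 4 whole-cornea libraries, where it did not work, so doublets remain there. Cells were clustered (leidenalg 0.10.2, Python 3.11.15) without the NR4A genes into 21 clusters. A cluster took a class name when over 20% of its cells showed each of at least 3 markers and its leading genes did not go against the name. This rule was settled after the clusters were seen, the keratocyte-like cluster led by Slc26a7 and the vessel gene Kdr is an exception to it, and mixed clusters stayed outside the 3 classes. Counts were summed per class and library and tested with edgeR 4.0.16 in R 4.3.3 (quasi-likelihood, Benjamini-Hochberg over all genes), with DESeq2 1.42.0 as an alternative. Class differences used exact sign-flip tests on log2(CPM + 1), and the scripts were tested on simulated data. Genes beyond the members are named from the listed families by size of change among those past the threshold, and by likeness to a member. The members and lists were chosen with earlier results of these data known. Promoters and microRNAs are from RefSeq (GRCm38.p6), and gene positions and UTRs from GENCODE.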

Additional observations from a re-analysis of the deposited data

Results flagged for a closer look

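Several members went one way in each library pair of one class and the other way in each pair of another. Each value is the mean change of log2(CPM + 1) in the first class minus that in the second, and none of these differences was tested. They carry the shift of all genes in CPM, which in epithelial-like cells was a median log2 ratio of -0.13 (WT) and -0.75 (KO) for age and 0.40 (WT) and 0.84 (KO) for preparation, and edgeR, which scales for it, gave Nr4a2 -0.40 for age and 1.83 for preparation there. For KO over WT (3 pairs), Nr4a2 differed by 1.56 between immune-like (0.11 to 0.75) and keratocyte-like cells (-1.40 to -0.57). For 6 over 2 months (2 pairs each), Nr4a2 differed by 1.53 between keratocyte-like (0.37 to 1.08) and epithelial-like cells (-1.15 to -0.46), and by 1.96 between immune-like (0.84 to 1.48) and epithelial-like cells. Nr4a3 differed by -1.38 between immune-like (-0.85 to -0.76) and keratocyte-like cells (0.29 to 0.86) for the same ages. For CRIC over whole cornea (2 pairs each), Nr4a2 differed by -2.80 between keratocyte-like (-0.91 to -0.09) and epithelial-like cells (1.83 to 2.76), and by 0.93 between immune-like (0.34 to 0.51) and keratocyte-like cells. Nr4a3 differed there by 1.66 between immune-like (0.54 to 0.74) and keratocyte-like cells (-1.50 to -0.54), and by 1.43 between immune-like and epithelial-like cells (-1.07 to -0.52). Outside the main measurement, cells of the 2-month KO library, labelled female, held 3077 UMIs of Y-linked genes.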

How the results depend on the processing

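Each library is the only one of its group, and fits have 1 or 2 residual degrees of freedom, which limits every call. The cause of the moves below was not tested, except that fewer libraries allow no smaller p. Counts of genes called for genotype in keratocyte-like cells were 46, and 0 with DESeq2, 0 with all 6 libraries and the pair as block, 78 without the Gm26917 cluster, 14 without the Saa3 cluster and 0 to 13 with a library left out. In epithelial-like cells 1 became 48 with no filter on low counts, 12 with cells of at least 1000 UMIs, 6 with another seed, 3 with the block and 0 to 7 with a library left out. In immune-like cells 25 became 8 (DESeq2), 61 (no filter), 4 (1000 UMIs), 4 (the 4 whole-cornea libraries), 4 (without clusters led by keratocyte or epithelial markers), 4 (macrophage-like cells alone) and 10 to 142 (a library left out). For age, 222 in keratocyte-like cells became 59 (DESeq2), 345 (1000 UMIs), 431 (without the Gm26917 cluster) and 99 to 3189 (a library left out). In epithelial-like cells 192 became 82 (DESeq2), 577 (no filter), 386 (1000 UMIs), 452 (seed) and 20 to 1642 (a library left out). For preparation, 178 in keratocyte-like cells ran from 163 to 341 with a library left out. In epithelial-like cells 2406 became 1558 with DESeq2 and 1375 to 2165 with a library left out. In immune-like cells 734 became 241 (DESeq2), 279 (1000 UMIs), 154 (without clusters led by keratocyte or epithelial markers), 56 (macrophage-like cells alone) and 228 to 808 (a library left out).

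Directions reversed for Nr4a2 by genotype in epithelial-like cells with the block (0.085, log2) and for Nr4a2 by preparation in immune-like cells without clusters led by keratocyte or epithelial markers (-0.064). With a library left out the sign varied for Nr4a2 (-0.33 to 0.13) and Nr4a3 (-2.03 to 0.14) by genotype in epithelial-like cells, Nr4a1 by genotype in immune-like cells (-0.19 to 0.12), Nr4a3 by age in keratocyte-like (-0.036 to 1.08) and epithelial-like cells (-0.29 to 1.97), and Nr4a2 by preparation in keratocyte-like cells (-1.16 to 0.18). With the 4 whole-cornea libraries only, class differences could not pass (adjusted p = 0.161, exact test): Nr4a1 3.75 (keratocyte-like minus epithelial-like) and 4.11 (immune-like minus epithelial-like), Nr4a2 2.54 (immune-like minus epithelial-like), and Nr4a3 3.23, 2.27 (immune-like minus keratocyte-like) and 5.50. With 5 libraries they ran from 3.81 to 4.18, 4.35 to 4.75, 1.87 to 2.39, 3.03 to 3.43, 2.32 to 2.82 and 5.63 to 6.00. The share of cells with any member moved from the values at 500 UMIs to 16.9%, 2.93% and 24.3% at 1000 UMIs and to 28.0%, 11.4% and 31.0% with no thinning, in keratocyte-like, epithelial-like and immune-like cells. Leaving out clusters, or keeping macrophage-like cells alone, was chosen after seeing the data.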
